A study of Mus musculus with 8 samples.

Results

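The genes described here are the mitochondrial ribosomal protein genes, that is every symbol of the count table that starts with Mrpl or Mrps and a digit. There were 78 such genes among 25240 symbols, and all 78 passed the filter on low counts, which kept 14284 genes. RNA had been sequenced from 4 Tomato-positive and 4 Tomato-negative libraries of kidney cells, which the labels call proximal tubular epithelial cells. All 8 libraries came from p16-tdTomato mice with chronic kidney disease brought about by a diet rich in adenine, so the negative cells carried the reporter genotype and the disease as well, and no library of a healthy kidney is among the groups. The genotype is named for a red fluorescent protein and for p16, a brake on the cell cycle made by senescent cells, and the series asks what characterises the senescent cells. The make of the reporter, the sort, the strain, the age of the mice and the length of the diet were not given in the sources used here.

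Mitochondria have a ribosome of their own, which translates the few messages encoded by mitochondrial DNA. Its products are core subunits of the respiratory chain and of the ATP synthase, while its own proteins are encoded in the nucleus, translated in the cytosol and imported. The small subunit reads the message and the large subunit joins the amino acids. Some of the proteins descend from those of the bacterial ribosome, others were added in mitochondria. Proximal tubule cells are among the cells of the kidney richest in mitochondria, which power the recovery of filtered solutes.

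Total counts per library lay between 13474439 and 19886202. The titles give 4 identifiers, each to 1 positive and 1 negative library, and values of libraries are given in the order CKD523_2, CKD523_3, CKD627_1, CKD627_2. The comparison of the groups without the identifier is called the unpaired fit and the one with it as a block the paired fit. Both used edgeR's quasi-likelihood test with Benjamini-Hochberg adjustment over all 14284 genes and a threshold of 0.05. The tdTomato transcript averaged 3705 ± 461 CPM (counts scaled by library total and TMM factor) in Tomato-positive and 111 ± 29.4 CPM in Tomato-negative libraries (SD, n = 4 each), while Cdkn2a, which encodes p16, lay at 1.17 ± 1.11 CPM and 1.06 ± 0.949 CPM in the same order of groups. Nothing in the labels ties the libraries to separate mice, so the tests speak to the spread between libraries, which may be technical.

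The mitochondrial ribosomal protein genes lay lower in Tomato-positive than in Tomato-negative cells, most of them by a similar amount. Every one of the 78 had a log2 difference (positive minus negative) below 0 in both fits, while 49.5% of all tested genes did in the paired fit. The median was -0.50 in the unpaired and -0.49 in the paired fit, against 0.01 for all tested genes in each. Single members ranged from -0.91 for Mrpl12 to -0.10 for Mrpl9 in the paired fit, with the quartiles at -0.59 and -0.38. Few of these differences passed the test one by one. In the unpaired fit 1 member fell, Mrpl42, and none rose, beside 33 of 14284 genes (0.231%) that fell. An unadjusted p under 0.05 was found there for 52 members, all of them lower, beside 2547 of the 14284 genes, 1282 of them lower. In the paired fit 10 members fell (12.8%) and 0 rose, beside 3.81% of all tested genes that fell and 3.82% that rose. Here 54 members, all lower, had an unadjusted p under 0.05, beside 3570 of the 14284 genes in either direction. DESeq2 called 21 members lower in the unpaired fit, beside 3.62% of all tested genes, and 25 in the paired fit, beside 7.39%, and also called 0 members higher in either. In bulk libraries, less RNA per cell and fewer cells of a type that is rich in it cannot be told apart.

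**Figure D1:**
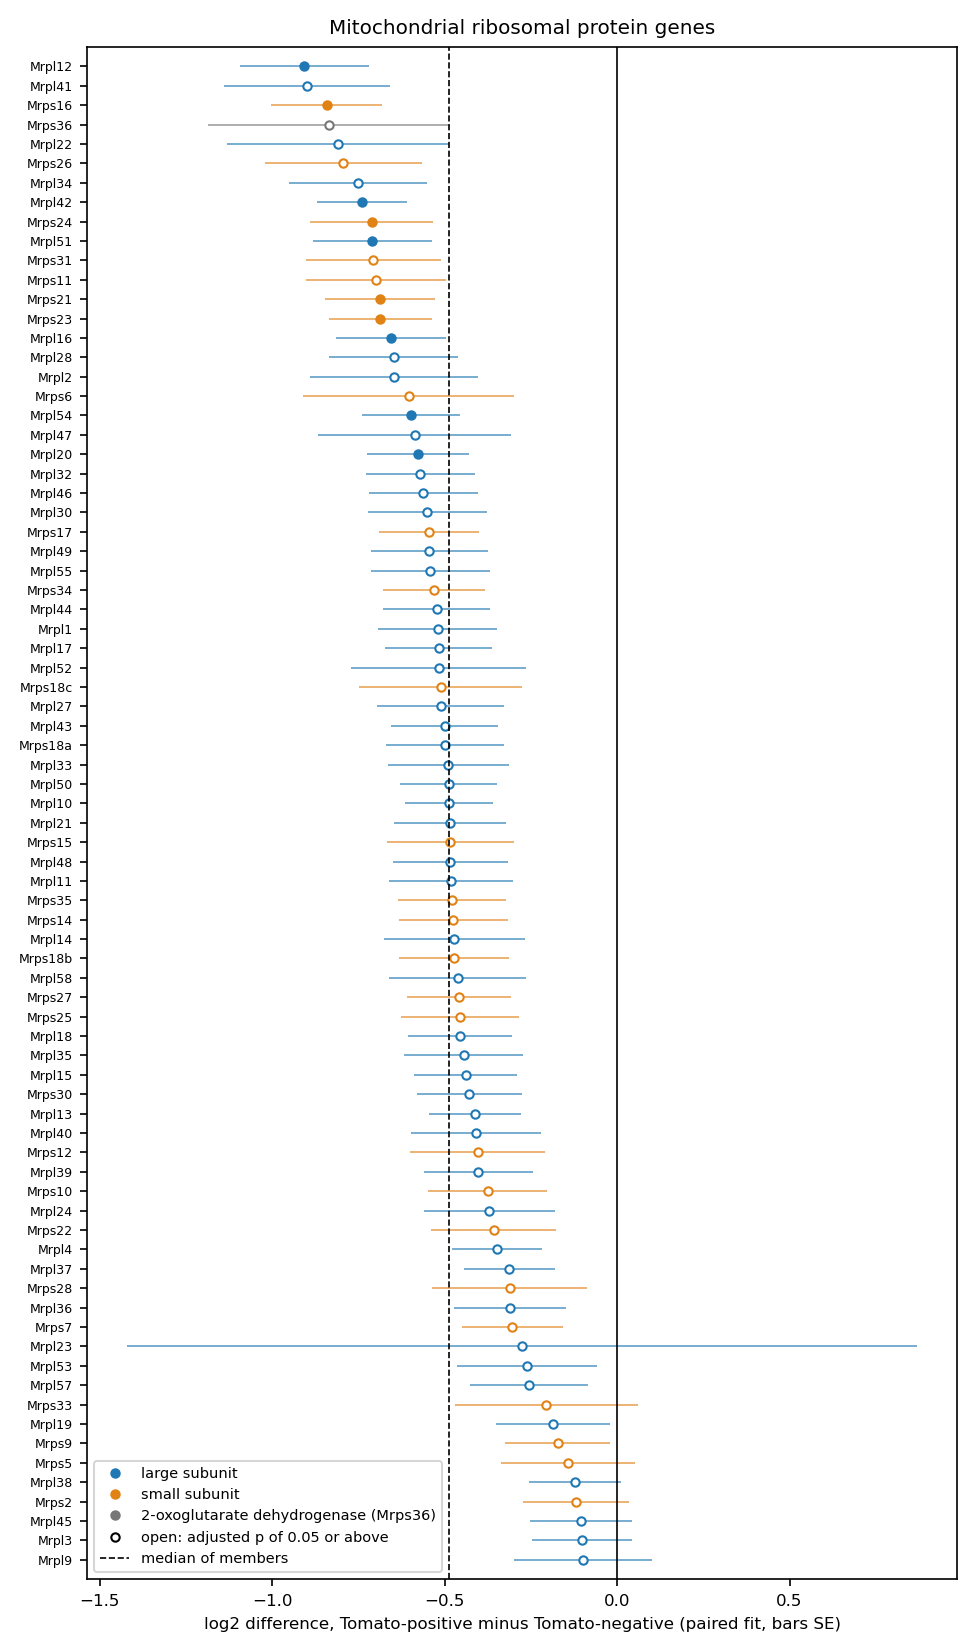
Log2 difference of each of the 78 members (rows), Tomato-positive minus Tomato-negative, in the paired fit, with bars of 1 SE (n = 4 libraries per group). Filled points passed an adjusted p of 0.05, and the points run from -0.91 (Mrpl12) to -0.10 (Mrpl9), all left of 0, with the dashed line at their median of -0.49.

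The summed level of the 78 genes was 2883, 2737, 2461 and 2510 CPM in the Tomato-positive libraries, against 3479, 3711, 4481 and 3289 CPM in the Tomato-negative ones. Each positive library lay below each negative one. The mean was 2648 ± 197 CPM in positive and 3740 ± 523.4 CPM in negative libraries (SD, n = 4 each), a ratio of 0.708. As a share of all counts the family took 0.278, 0.269, 0.264 and 0.260% in the positive and 0.327, 0.338, 0.470 and 0.346% in the negative libraries. The ratio of positive to negative within a pair was 0.83, 0.738, 0.549 and 0.763, so the pair CKD627_1 stood apart. Its negative library was the highest of all 8 for 58 of the 78 members, and its positive library the lowest for 32.

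Pair by pair, the median log2 ratio of the members was -0.30 in CKD523_2, -0.47 in CKD523_3, -0.80 in CKD627_1 and -0.36 in CKD627_2. The positive library was the lower one for 65, 71, 75 and 71 members. In all 4 pairs 55 members (70.5%) were lower in the positive library, as were 17.6% of all tested genes. Another 17 members were lower in 3 pairs, 5 in 2 and 1, Mrpl23, in 1. The groups did not overlap for 40 members (51.3%), whose 4 positive libraries all lay below the 4 negative ones, beside 6.48% of all tested genes. The reverse order was seen for 0 members. Without the pair CKD627_1 the median of the paired fit was -0.37, with 76 members below 0 (50.4% of all tested genes) and 9 that fell (4.65% of all tested genes).

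**Figure D2:**
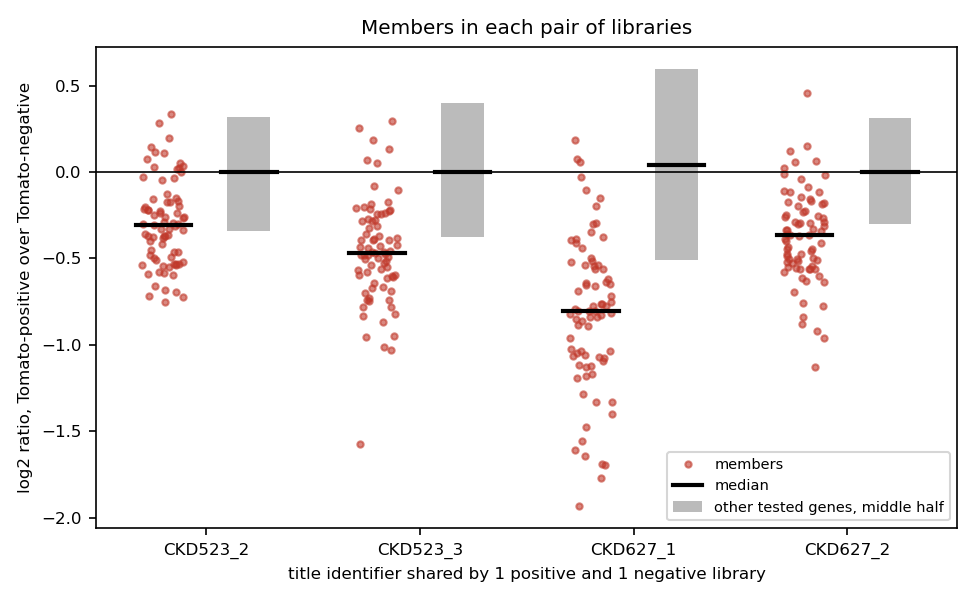
Log2 ratio of Tomato-positive over Tomato-negative CPM within each pair (0.5 counts were added to each), with each point a member and the bar its median, beside the median and the middle quartiles of the other tested genes in grey. The medians of the members lie at -0.30, -0.47, -0.80 and -0.36, those of the other genes near 0, and Mrpl23, which had 0 counts in 1 library, is left out.

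Mrpl12 forms the stalk of the large subunit that recruits translation factors, and it also binds the mitochondrial RNA polymerase. It lies at chr11:120484613-120489065 (mm10, as are all positions here). Its level was 109, 101, 55.2 and 81.6 CPM in Tomato-positive libraries, against 163, 179, 168 and 126 CPM in Tomato-negative libraries. The groups did not overlap, and the positive library of CKD627_1 was the lowest. Mrpl12 fell by 0.91 ± 0.19 on the log2 scale (SE) in the paired fit, with an edgeR adjusted p of 0.0237, and its unpaired log2 difference was -0.88, with an edgeR adjusted p of 0.0970. It was the member with the most negative paired value.

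Mrpl42, a large-subunit protein with no bacterial relative (chr10:95480805-95501940), was the member that passed both fits. Tomato-positive libraries held 41.5, 45.9, 45.5 and 45.0 CPM, against 62.1, 78.9, 80.3 and 77.1 CPM in Tomato-negative libraries. The positive libraries were within a few CPM of one another, and every pair showed a like step down. Its log2 difference was -0.75 ± 0.13 (SE) in the unpaired fit (edgeR adjusted p = 0.0473) and -0.74 ± 0.13 in the paired fit (edgeR adjusted p = 0.0139). When any single library was left out, 0 members passed the unpaired fit, Mrpl42 included, with 36 to 53 at an unadjusted p under 0.05. The share of all tested genes at that unadjusted threshold was not computed for these fits.

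Mrps16 is a small-subunit protein whose loss in humans causes a combined respiratory chain deficiency (chr14:20389304-20393634). It had 26.7, 19.8, 28.2 and 24.2 CPM in Tomato-positive and 40.3, 38.1, 64.2 and 37.7 CPM in Tomato-negative libraries. The groups did not overlap, although the negative library of CKD627_1 lay far above the other negative ones. The paired log2 difference was -0.84 ± 0.16 (SE; edgeR adjusted p = 0.0187). Mrps16, Mrpl12 and Mrpl42 were the members that still passed the paired fit without the pair CKD523_2. Without CKD523_3 or without CKD627_2, 0 members passed it, and 43 and 40 had an unadjusted p under 0.05. The share of all tested genes at that unadjusted threshold was not computed for these fits.

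The other small-subunit genes that fell in the paired fit were Mrps24, Mrps21 and Mrps23. Mrps24 is related to a bacterial protein at the entry of the message (chr11:5703983-5715680). It had 39.1, 39.6, 36.6 and 41.5 CPM in Tomato-positive and 50.5, 58.7, 92.2 and 62.1 CPM in Tomato-negative libraries. Its exons overlap those of Urgcp, a protein-coding gene on the same strand, so reads of the overlap cannot be told apart with certainty. Mrps21, also with a bacterial relative (chr3:95862634-95871519), had 51.0, 47.0, 41.2 and 43.3 CPM in Tomato-positive and 72.7, 78.8, 90.2 and 55.8 CPM in Tomato-negative libraries. Mrps23, which was added in mitochondria (chr11:88204388-88211507), had 36.3, 36.8, 42.5 and 38.3 CPM in Tomato-positive and 52.7, 51.1, 87.3 and 61.9 CPM in Tomato-negative libraries. In each of these 3 genes the groups did not overlap, and the negative library of CKD627_1 was the highest. Their paired log2 differences were -0.71 ± 0.18 for Mrps24, -0.69 ± 0.16 for Mrps21 and -0.69 ± 0.15 for Mrps23 (SE), with edgeR adjusted p of 0.0468, 0.0363 and 0.0283.

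Of the large subunit, Mrpl51, Mrpl16, Mrpl54 and Mrpl20 completed the 10. Mrpl51 has no bacterial relative (chr6:125191801-125196269), and its level was 49.9, 36.4, 42.7 and 47.1 CPM in Tomato-positive and 61.6, 74.3, 89.7 and 63.6 CPM in Tomato-negative libraries. Mrpl16, a relative of a bacterial protein close to the bound tRNAs (chr19:11770391-11774960), was at 27.8, 27.1, 22.2 and 24.0 CPM in Tomato-positive and 43.9, 46.6, 41.0 and 29.3 CPM in Tomato-negative libraries. The negative library of CKD627_2 came nearest to the positive ones in Mrpl16. Mrpl54, another addition of mitochondria (chr10:81264713-81266934), reached 31.2, 30.4, 39.3 and 35.6 CPM in Tomato-positive and 42.6, 47.4, 70.3 and 48.8 CPM in Tomato-negative libraries. For Mrpl20, whose bacterial relative acts early in assembly (chr4:155802878-155809975), Tomato-positive libraries had 43.7, 37.4, 39.9 and 46.9 CPM and Tomato-negative libraries 63.1, 68.3, 62.7 and 56.2 CPM. None of the 4 genes had overlapping groups. Their paired log2 differences were -0.71 ± 0.17, -0.65 ± 0.16, -0.60 ± 0.14 and -0.58 ± 0.15 (SE) in the order named, with edgeR adjusted p of 0.0414, 0.0416, 0.0394 and 0.0499, the last of them close to the threshold.

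**Figure D3:**
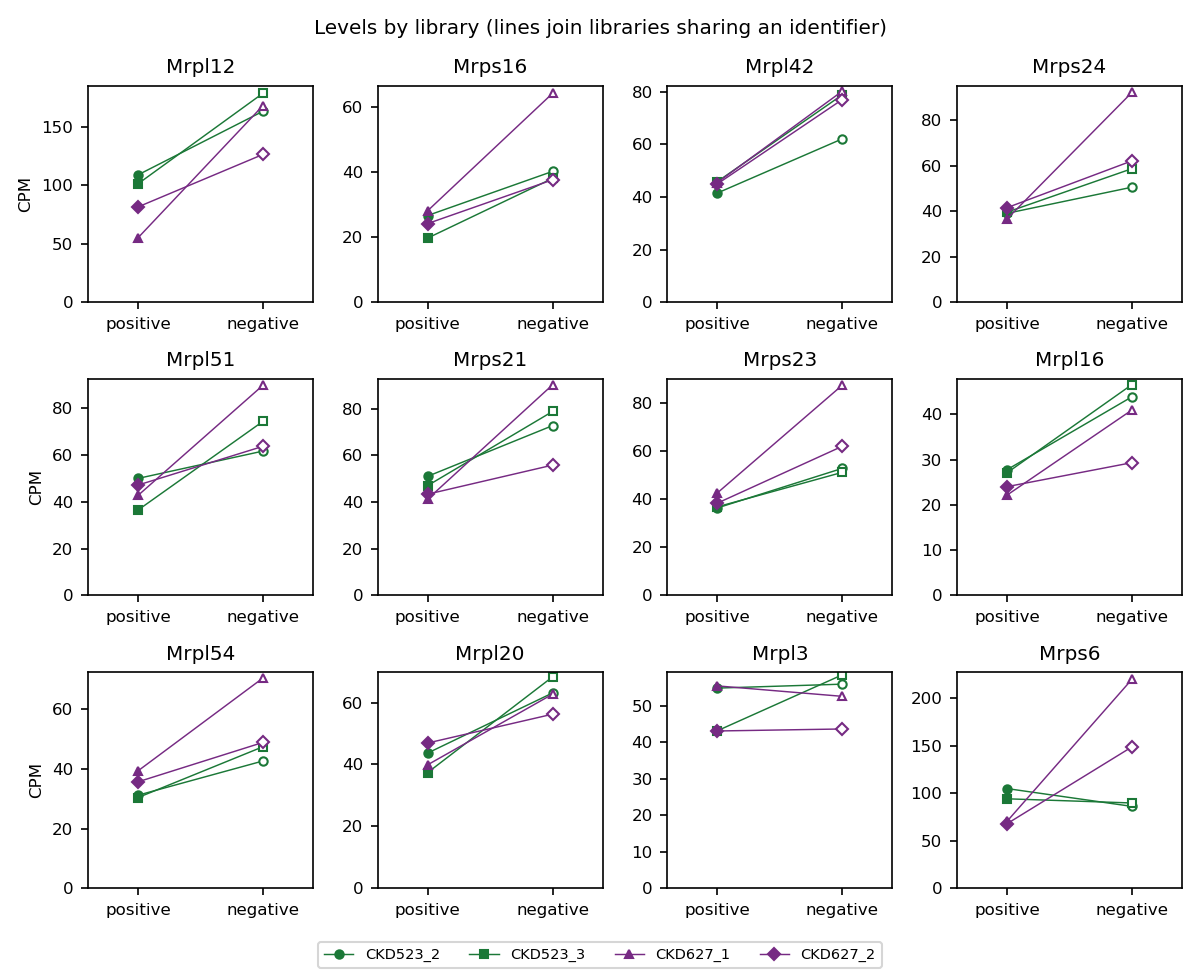
CPM of 12 members in each library, Tomato-positive on the left and Tomato-negative on the right of each panel, with lines joining the libraries that share an identifier. In the first 10 panels, the members that fell in the paired fit, the groups do not overlap, while Mrpl3 overlaps and Mrps6 goes down in both CKD627 pairs only.

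Some members with large differences and a wide spread between libraries missed the threshold. Mrpl41, a large-subunit protein added in mitochondria, had 25.0, 20.5, 15.1 and 16.3 CPM in Tomato-positive and 30.0, 33.0, 51.5 and 30.0 CPM in Tomato-negative libraries. Its groups did not overlap, and its paired log2 difference was -0.90 ± 0.24 (SE; edgeR adjusted p = 0.0568). The exit tunnel protein Mrpl22 had 16.9, 8.76, 5.45 and 9.22 CPM in Tomato-positive and 15.6, 17.0, 20.9 and 13.1 CPM in Tomato-negative libraries. Here the positive library of CKD523_2 lay above 2 negative ones, and the log2 difference was -0.81 ± 0.32 (edgeR adjusted p = 0.162). Mrps26, of the small subunit, stood at -0.79 ± 0.23 (edgeR adjusted p = 0.0715) and Mrpl34 at -0.75 ± 0.20 (edgeR adjusted p = 0.0565). Mrps36 carries a ribosomal name but is a component of the 2-oxoglutarate dehydrogenase complex. It had 3.69, 2.82, 3.49 and 1.99 CPM in Tomato-positive and 6.13, 5.72, 5.45 and 3.88 CPM in Tomato-negative libraries, with a log2 difference of -0.84 ± 0.35 (edgeR adjusted p = 0.181).

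At the other end stood 8 members with log2 differences between -0.19 and -0.10, with edgeR adjusted p from 0.527 to 0.804. Mrpl3, close to the site where the peptide bond forms (chr9:105053239-105079888), had 54.8, 43.2, 55.4 and 43.1 CPM in Tomato-positive and 55.9, 58.5, 52.6 and 43.7 CPM in Tomato-negative libraries. Its groups overlapped throughout, and the log2 difference was -0.10 ± 0.14 (SE; edgeR adjusted p = 0.709). Mrpl45, which holds the ribosome to the inner membrane, had 41.2, 52.0, 38.5 and 39.3 CPM in Tomato-positive and 44.9, 45.8, 50.6 and 41.7 CPM in Tomato-negative libraries. The log2 difference was -0.11 ± 0.15 (edgeR adjusted p = 0.706), and with gene length as an offset it was 0.02. The others were Mrpl19 (-0.19), Mrps9 (-0.17), Mrps5 (-0.14), Mrpl38 (-0.12), Mrps2 (-0.12) and Mrpl9 (-0.10).

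Several members of known role lay near the family's median of -0.49, while Mrps22 lay above its upper quartile of -0.38. Mrpl58, a hydrolase that frees stalled ribosomes, had 50.8, 44.6, 34.6 and 49.1 CPM in Tomato-positive and 52.1, 61.7, 78.4 and 55.4 CPM in Tomato-negative libraries. Its groups were close but did not overlap, and its paired log2 difference was -0.46 (edgeR adjusted p = 0.189). Mrps12, of the decoding centre, was at -0.40 (0.241), and Mrps22, whose mutation in humans impairs the respiratory chain, at -0.36 (0.261), each with the edgeR adjusted p in parentheses. Mrpl11, at the base of the stalk, was at -0.48 (edgeR adjusted p = 0.139) and Mrpl44, with a ribonuclease-like fold, at -0.52 (edgeR adjusted p = 0.0766). The paralogs Mrps18a, Mrps18b and Mrps18c, all related to one bacterial protein, had log2 differences of -0.50, -0.47 and -0.51 in the paired fit. In this respect the 3 paralogs differed by far less than their standard errors of 0.17, 0.16 and 0.24.

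Members of both subunits were among those that fell. The 51 large-subunit members, Mrps18a and Mrps30 included, had a median paired log2 difference of -0.49 with 6 that fell, and the 26 small-subunit members had -0.48 with 4 that fell. Among all tested genes 3.81% fell. Groups did not overlap, with the positive libraries lower, for 28 of the 51 and for 11 of the 26, beside 6.48% of all tested genes. The medians within CKD627 were -0.58 and -0.65. The difference between the subunits was not tested. Members with a bacterial relative (47) and those added in mitochondria (30) had medians of -0.48 and -0.49, with 6 and 4 that fell. These classes come from background knowledge of the ribosome, with Mrps36 counted in none.

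Levels between genes are comparable only per length, here as RPKM (TMM-scaled CPM per kilobase of exon). Per length the members spanned from 0.223 RPKM for Mrpl23 to 92.2 RPKM for Mrpl34 as the mean of both groups, with a median of 15.3. Mrpl34 had 68.3 ± 11.7 RPKM in Tomato-positive and 116 ± 26.1 RPKM in Tomato-negative libraries. It was followed by Mrps21 with 61.8 ± 5.80 and 101 ± 19.4 RPKM, and by Mrpl12 with 56.6 ± 15.7 and 104 ± 14.8 RPKM in positive and negative libraries (SD, n = 4 each). The order of these 3 was within their spread. The lowest were Mrpl47 with 2.44 ± 0.909 RPKM in Tomato-positive and 3.51 ± 0.436 RPKM in Tomato-negative libraries, Mrps10 with 2.12 ± 0.595 and 2.73 ± 0.637 RPKM in the same order, and Mrpl23. The exit tunnel protein Mrpl23 had 21, 26, 0 and 21 counts in Tomato-positive libraries, and the 0 of 15242105 counts allows up to 3. Its paired log2 difference was -0.28 ± 1.15 (SE), which is not interpretable at this depth.

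Exon length moved with the result over all genes, so the values are given beside it. Members were short, with a median of 2394 bases of exon (607 to 8631), against 4368 for all tested genes. When the tested genes were ordered by length and cut into 5 groups of nearly equal size, the median log2 difference of the genes other than members was -0.26, -0.10, 0.00, 0.10 and 0.24 from the shortest to the longest. The members in the same groups, 39, 14, 11, 8 and 6 of them, had medians of -0.52, -0.43, -0.52, -0.31 and -0.46. In each group the members' median lay below that of the other genes. With an offset for length in the fit, the median of the members was -0.34 unpaired, with 72 below 0 and 1 that fell, and -0.33 paired, with 71 below 0 and 10 that fell. Of all tested genes, 51.4% were below 0 and 0.175% fell in the unpaired fit with that offset, and 51.7% and 4.14% in the paired one. Of these 10, 5 were among the 10 above, namely Mrpl12, Mrpl16, Mrpl42, Mrpl51 and Mrps16. Among the members themselves, length and paired log2 difference had a Spearman's rho of 0.30 over 78 genes of the same libraries. The part of length in the remaining difference was not tested.

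**Figure D4:**
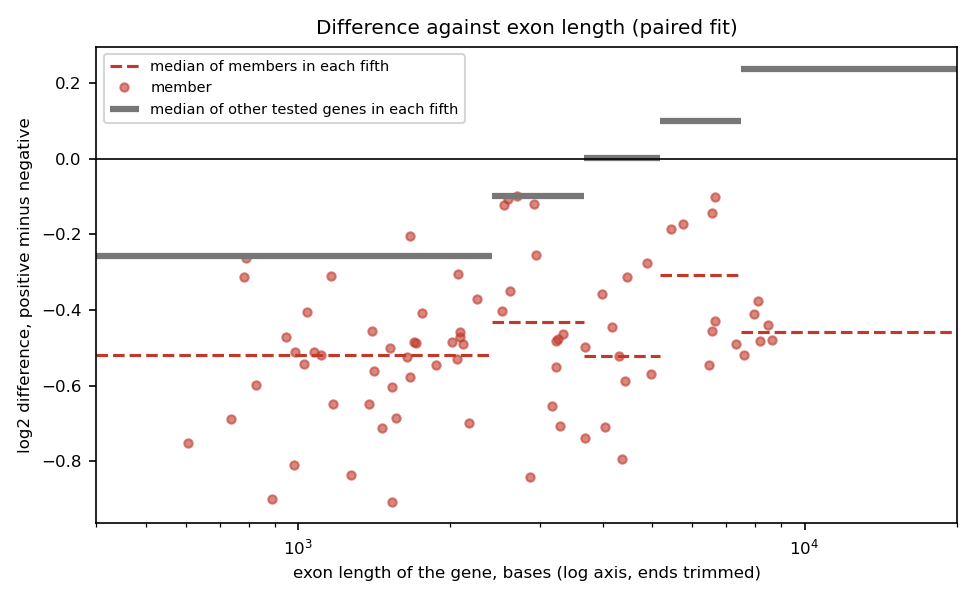
Paired log2 difference (Tomato-positive minus Tomato-negative) of the 78 members against exon length in bases on a log axis, with the median of the members (dashed) and of the other tested genes (grey) in each of 5 length groups. The grey steps climb from -0.26 to 0.24, and the members' medians lie below them in each group.

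The identifiers start with CKD523 or CKD627, and what these prefixes stand for was not given in the sources used here. Within CKD523 the members' median log2 difference was -0.39 with 74 below 0, and within CKD627 it was -0.60 with 75 below 0. Of all 14284 tested genes, 7218 and 7107 were below 0 in the same order. For 61 of 78 members the value within CKD627 was the more negative one, as it was for 7051 of the 14284 genes. A test of the difference between prefixes called 0 members (edgeR, adjusted p under 0.05), beside 20 of 14284 genes (0.14%). DESeq2 called 1 member, Mrps6, beside 2.79% of all tested genes. In the edgeR test 5 of 78 members had an unadjusted p under 0.05, beside 1974 of the 14284 genes. Set against each other, CKD627 libraries had a median log2 difference to CKD523 libraries of -0.13 among Tomato-positive libraries, with 26 of 78 members higher, and of 0.13 among Tomato-negative ones, with 51 of 78 higher. Of all 14284 tested genes, 7232 were higher in CKD627 among Tomato-positive and 7668 among Tomato-negative libraries.

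Mrps6, a small-subunit protein with a bacterial relative (chr16:92058270-92112227), had opposite signs in the 2 prefixes. It had 105, 94.1, 70.4 and 67.9 CPM in Tomato-positive libraries, against 86.1, 89.7, 220 and 149 CPM in Tomato-negative libraries. Both CKD523 pairs were slightly higher in the positive library and both CKD627 pairs lower, and the negative CKD627 libraries were the highest of all 8. Within CKD523 the log2 difference was 0.18 and within CKD627 it was -1.39. The difference between prefixes was -1.56 ± 0.25 (SE), with an edgeR adjusted p of 0.0745 and a DESeq2 adjusted p of 6.37e-05. Its exons overlap those of Gm49711 and of Slc5a3, an inositol transporter gene on the same strand, so reads of the 2 genes cannot be told apart with certainty. Slc5a3 had 136, 173, 112 and 91.8 CPM in Tomato-positive and 150, 133, 158 and 160 CPM in Tomato-negative libraries, with log2 differences of 0.12 within CKD523 and -0.64 within CKD627. Mrpl9, a large-subunit protein with a bacterial relative, also had opposite signs, with 0.31 within CKD523 and -0.52 within CKD627, and an edgeR adjusted p of 0.233 for the difference. The sign differed between the prefixes for 7 of the 78 members, Mrps6 and Mrpl9 included, and for 5243 of the 14284 tested genes.

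The labels name the proximal tubule, but markers of other nephron segments were present in every library and several moved between the groups. Markers of principal cells of the collecting duct summed to between 1055 and 5382 CPM in Tomato-positive and between 231 and 2346 CPM in Tomato-negative libraries, and 8 of 8 rose in the paired fit, with a median log2 difference of 1.55. Proximal tubule markers summed to 5328 to 14894 CPM in Tomato-positive and 7669 to 34741 CPM in Tomato-negative libraries, and 8 of 19 fell, with a median of -0.68 (Ass1 was at 0 in at least 1 library). That median was -1.25 within CKD523 and -0.02 within CKD627, while the members' medians were -0.39 and -0.60. In the same order of prefixes, the medians were -1.46 and -1.14 for loop of Henle and -1.85 and -1.38 for distal tubule markers. For intercalated cell markers they were -0.44 and -0.95, and for principal cell markers 1.92 and 1.36. Of the 19 proximal tubule markers 15 were below 0. The highest, Slc5a2, was at 0.70 (edgeR adjusted p = 0.0810) and higher in the positive library of all 4 pairs. Loop of Henle markers summed to 1848 to 6886 CPM in Tomato-positive and 4202 to 14346 CPM in Tomato-negative libraries (6 of 8 fell, median -1.11). Distal tubule markers summed to 212 to 868 CPM in Tomato-positive and 1190 to 2650 CPM in Tomato-negative libraries (6 of 7 below 0, 4 fell, median -1.87), with Pvalb at 0 in at least 1 library. For intercalated cells the sums were 294 to 977 CPM in Tomato-positive and 264 to 2067 CPM in Tomato-negative libraries. The list was split, with 5 of 8 markers below 0, of which 3 fell. Slc4a1, Aqp6 and Kit had log2 differences of 0.45, 0.38 and 0.29 and were higher in the positive library of all 4 pairs, although none passed. Of the leukocyte markers, which summed to 33.4 to 44.9 CPM in Tomato-positive and 41.0 to 54.2 CPM in Tomato-negative libraries, 1 of 6 tested rose, Cd68, and 3 of 6 were below 0, with a median of 0.09. Csf1r was at -1.52 (edgeR adjusted p = 0.0617) and lower in the positive library of all 4 pairs, while Adgre1, C1qa, C1qb, Cd3e and Cd79a were at 0 in at least 1 library. Endothelial, fibroblast and podocyte markers had 0 called, with medians of 0.07, 0.39 and -0.19 and 0, 3 and 0 genes at an unadjusted p under 0.05. Their sign turned between pairs. The pair medians were -1.65, 0.96, 1.05 and -0.25 for endothelial and -2.70, 1.30, 0.83 and -0.93 for podocyte markers. For fibroblast markers they were 1.18, 0.79, 0.21 and -0.39. The counts of markers called are from edgeR's paired fit, in which 3.81% of all tested genes fell and 3.82% rose. The unpaired fit called 1 proximal tubule marker lower and 1 principal cell marker higher. The part of cell make-up in the lower level of the ribosomal protein genes was not tested.

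Other proteins of the mitochondrial ribosome or bound to it, which carry other symbols, had the same sign. All 6 (Chchd1, Gadd45gip1, Aurkaip1, Dap3, Oxa1l and Ptcd3, the next to last of which inserts the products into the inner membrane) had log2 differences below 0 in the paired fit, from -0.57 to -0.24 with a median of -0.39, and 0 passed, with 4 at an unadjusted p under 0.05. Among the assembly factors, which modify the ribosomal RNA or join the subunits, 24 of 26 were below 0, with a median of -0.32, and 0 passed, with 5 at an unadjusted p under 0.05. Mtg1, a GTPase of large-subunit assembly, came nearest, with a log2 difference of -0.84 ± 0.22 (SE; edgeR adjusted p = 0.0545).

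Translation factors and synthetases gave a few calls, all in the paired fit, where 3.81% of all tested genes fell. Of 15 factors 14 were below 0 (median -0.42) and 2 fell. Tufm, the elongation factor that brings tRNAs to the ribosome, had 21.4, 25.1, 21.5 and 16.3 CPM in Tomato-positive and 41.2, 40.4, 40.6 and 29.6 CPM in Tomato-negative libraries. Its groups did not overlap, and it fell by 0.85 ± 0.15 on the log2 scale (SE; edgeR adjusted p = 0.0136). Slirp, which keeps mitochondrial messages stable, fell by 0.96 ± 0.24 (edgeR adjusted p = 0.0440). Of 20 synthetases and amidotransferase subunits, 15 were below 0 (median -0.18) and 1 fell, the leucyl-tRNA synthetase Lars2, by 0.87 ± 0.13 (edgeR adjusted p = 0.00902). Genes of mitochondrial DNA upkeep and transcription had 14 of 17 below 0 (median -0.25) and 0 that passed, with 5 at an unadjusted p under 0.05, among them Tfam at -0.48 and the RNA polymerase Polrmt at -0.43.

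Regulators of mitochondrial biogenesis did not share the direction, with 3 of 10 below 0 and a median of 0.08. Myc, a growth regulator, had 213, 177, 115 and 103 CPM in Tomato-positive and 120, 82.3, 80.7 and 52.0 CPM in Tomato-negative libraries. It was higher in the positive library of each pair and rose by 0.86 ± 0.14 on the log2 scale (SE; edgeR adjusted p = 0.0115) in the paired fit, while the unpaired fit gave an edgeR adjusted p of 0.190. The nuclear receptor Esrra was at -0.48 (edgeR adjusted p = 0.0527) and its coactivator Ppargc1a at -0.37 (edgeR adjusted p = 0.261), while the factors that bind the motifs searched in the promoters, Gabpa, Nrf1 and Yy1, were at -0.05, 0.04 and 0.08. By contrast the nuclear genes of complex I and complex IV, whose partners the mitochondrial ribosome makes, were lower by more. All 46 tested ones were below 0 with a median of -0.77, beside 49.5% of all tested genes below 0 in the paired fit. Of the 46, 36 fell in the paired fit and 8 in the unpaired fit, beside 3.81% and 0.231% of all tested genes. Exon length, which moved with the result over all genes, differed between the lists. Its median was 1522.5 bases for these subunits, 2394 for the members, 3693 for the assembly factors, 5173.5 for the synthetases and 6351 for the regulators. Tested genes other than members with 5179 to 7508 bases had a median log2 difference of 0.10. The part of length in the differences between lists was not tested. The complex IV gene Cox7a2 had 131, 133, 100.4 and 119 CPM in Tomato-positive and 217, 268, 317 and 237 CPM in Tomato-negative libraries. The complex I gene Ndufb9 had 154, 151, 156 and 146 CPM in Tomato-positive and 243, 263, 325 and 231 CPM in Tomato-negative libraries. The groups did not overlap in either, and the paired log2 differences were -1.10 ± 0.17 and -0.80 ± 0.13 (SE; edgeR adjusted p = 0.00902 and 0.0115).

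**Figure D5:**
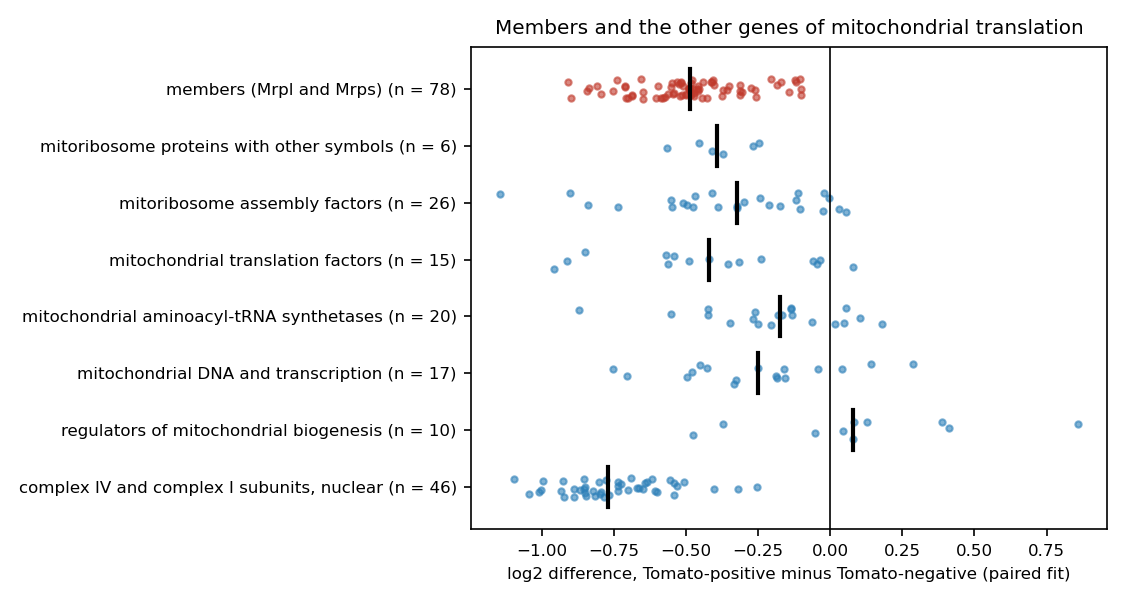
Paired log2 difference (Tomato-positive minus Tomato-negative) of each gene in 8 lists (rows), with a bar at the median. The members lie at a median of -0.49, between the assembly factors (-0.32) and the nuclear subunits of complexes I and IV (-0.77), and the regulators of biogenesis straddle 0. Exon length, which differs between the lists, is not taken into account.

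Promoters of these genes are known to hold motifs of the ETS family (bound by GABP), of NRF1 and of YY1. RefSeq gave 75 windows for 69 of the 78 members (GRCm38.p6, the same build as mm10, from 250 bases before to 50 after the start). The core letters CCGGAAGT (ETS), GCGCATGC (NRF1) and AAGATGGC (YY1) were searched on both strands, and matches of different motifs overlapped in 0 windows of members. Counted by gene, ETS letters stood in 12 members (17.4% of 69), against 8.49% of the 11273 tested genes with a window, NRF1 letters in 8 (11.6%, against 5.54%) and YY1 letters in 12 (17.4%, against 4.96%). At least 1 of the 3 stood in 29 members (42.0%, against 17.6%). Counted by window, 16.0, 10.7 and 16.0% of the members' windows held ETS, NRF1 and YY1 letters, against 3.89, 2.71 and 2.75% of all 32851 windows. Members with a match and those without had median paired log2 differences of -0.49 and -0.50. Shown are windows of 3 members that fell in the paired fit (Mrpl42 at chr10:95501900-95502199 on the minus strand, Mrpl51 at chr6:125191950-125192249 on the plus strand, Mrps24 at chr11:5707652-5707951 on the minus strand). A member near 0, Mrpl3 (chr9:105053018-105053317, plus strand), stands beside them, as does Mrps11 (chr7:78782881-78783180, plus strand), which shares its start region with another member. Capitals mark the YY1 letters in Mrpl42, Mrps24 and Mrps11 (there on the other strand) and the ETS letters in Mrpl51 and Mrpl3.
Mrpl42: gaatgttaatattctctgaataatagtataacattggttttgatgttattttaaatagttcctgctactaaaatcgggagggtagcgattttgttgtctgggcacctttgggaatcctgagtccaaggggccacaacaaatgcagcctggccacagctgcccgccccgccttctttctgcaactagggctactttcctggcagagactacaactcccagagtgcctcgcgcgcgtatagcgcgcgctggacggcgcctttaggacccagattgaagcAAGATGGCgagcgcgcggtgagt
Mrps24: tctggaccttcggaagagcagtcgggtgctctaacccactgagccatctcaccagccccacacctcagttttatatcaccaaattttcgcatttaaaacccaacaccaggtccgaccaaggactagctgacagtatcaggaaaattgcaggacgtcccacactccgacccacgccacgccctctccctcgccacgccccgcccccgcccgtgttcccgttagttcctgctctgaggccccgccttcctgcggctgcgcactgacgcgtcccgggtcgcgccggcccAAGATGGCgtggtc
Mrpl51: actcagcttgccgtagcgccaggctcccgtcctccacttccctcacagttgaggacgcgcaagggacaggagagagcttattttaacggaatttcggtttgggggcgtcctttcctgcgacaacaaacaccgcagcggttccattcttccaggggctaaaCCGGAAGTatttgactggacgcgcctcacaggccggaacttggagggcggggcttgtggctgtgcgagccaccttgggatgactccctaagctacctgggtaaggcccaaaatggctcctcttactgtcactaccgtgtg
Mrpl3: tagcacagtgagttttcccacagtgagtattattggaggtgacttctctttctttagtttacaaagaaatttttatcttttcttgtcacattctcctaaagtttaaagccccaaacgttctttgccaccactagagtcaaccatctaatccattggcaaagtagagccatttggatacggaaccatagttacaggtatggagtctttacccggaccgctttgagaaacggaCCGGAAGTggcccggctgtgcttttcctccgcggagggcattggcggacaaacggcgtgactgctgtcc
Mrps11: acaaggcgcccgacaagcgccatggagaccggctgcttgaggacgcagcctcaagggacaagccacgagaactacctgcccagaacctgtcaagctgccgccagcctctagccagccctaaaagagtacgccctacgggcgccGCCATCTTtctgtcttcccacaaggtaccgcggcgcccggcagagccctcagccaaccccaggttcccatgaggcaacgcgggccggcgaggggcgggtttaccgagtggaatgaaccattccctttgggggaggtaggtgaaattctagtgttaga
The YY1 letters began 27 bases after the start of Mrpl42 and 36 after that of Mrps24, and the ETS letters began 90 bases before the start of Mrpl51 and 19 before that of Mrpl3. A match is a description of letters and not of binding.

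The window of Mrps11 overlaps that of Mrpl46, which starts on the opposite strand, by 141 bases, so a small-subunit and a large-subunit gene share a start region. Mrps11 had 15.2, 22.0, 14.7 and 17.3 CPM in Tomato-positive and 25.6, 26.7, 35.9 and 24.2 CPM in Tomato-negative libraries. Mrpl46 had 18.0, 23.0, 22.8 and 24.9 CPM in Tomato-positive and 26.3, 33.8, 40.3 and 31.3 CPM in Tomato-negative libraries. In both genes the groups did not overlap, with paired log2 differences of -0.70 ± 0.20 and -0.56 ± 0.16 (SE; edgeR adjusted p = 0.0743 and 0.0684). Their exons overlap on opposite strands, and without a known strand setting reads of the overlap cannot be told apart.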

How the data were processed

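RNA of kidney cells was sequenced in 8 libraries. The authors deposited 1 table of raw counts per gene symbol. Reads were aligned with subread, per the file headers, and the build mm10, edgeR 3.32.1 and limma 3.46.0 were named, per the submitters' processing notes. The counter, annotation, strand setting and handling of reads with several matches were not given in the sources used here. Processed pseudogenes of Mrpl23, Mrpl48 and Mrps36 are annotated, so reads could be shared with them.

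Groups came from the titles. Genes were kept with filterByExpr (a minimum count of 10, total 15), scaled by TMM and tested, 2-sided, with edgeR 4.0.16 in R 4.3.3 (glmQLFit and glmQLFTest), and the script was tested on simulated data. The SE of a log2 difference is the difference over the root of F. Libraries sharing an identifier correlated at 0.46, 0.32, 0.33 and 0.47 in their deviations from the group means, all above the limit of 0.1, so the titles' identifiers were taken to pair the libraries. The best correlation of a positive library with a negative one of another identifier was 0.42, 0.34, 0.47 and 0.30 in the same order, so for 2 of 4 identifiers it was not specific to the pair. Within a group, counts of any 2 libraries differed beyond sampling noise (chi-square over degrees of freedom from 15.5 to 191), so none was treated as a library deposited in duplicate. This does not show that they are biological replicates. The difference between prefixes was an interaction term.

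Exon lengths and positions are from GENCODE M21 (78 of 78 members matched), where 33 members share exon bases with another gene. The members, the gene lists and the tests were chosen with earlier results of these data known. Named genes were members past the threshold in the unpaired fit, the 8 largest falls and the 8 smallest, the 3 highest and 3 lowest per length, 12 of known role, up to 4 per other list, and, added after their values were seen, the members past the threshold in the paired fit (among them Mrpl16, Mrpl20, Mrpl51, Mrpl54, Mrps23 and Mrps24, which no other rule names), Mrps6, Mrps11 and Mrpl46. Alternatives were other scalings, filters, a length offset, DESeq2 1.42.0, limma-voom 3.58.1, the prefix as covariate or alone, and leaving out each library or pair.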

Additional observations from a re-analysis of the deposited data

Results flagged for a closer look

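In a group of 4 libraries, 1 value was marked when it stood apart from the other 3 by more than Dixon's 95% limit, which chance reaches in about 1 in 20 groups. Among Tomato-negative libraries, CKD627_1 was such a high value for Mrpl11 (65.5 CPM), Mrpl41 (51.5 CPM), Mrps10 (29.7 CPM) and Mrps16 (64.2 CPM). The same library was the highest of all 8 for 58 of the 78 members. The Tomato-negative library CKD627_2 was a low value for Mrps22 (16.9 CPM). Only named members are listed, so the list is not complete. Mrpl55 had 35.6 CPM in the Tomato-negative library CKD627_1, against 23.2, 21.5 and 23.1 CPM in the other negative ones. Mrps17 had 19.3 CPM in the Tomato-positive library CKD627_2, against 28.8, 28.8 and 29.4 CPM in the other positive ones.

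The difference of Tomato-positive minus Tomato-negative cells went opposite ways in the 2 prefixes in every pair for 2 members. The share of all tested genes with this pattern in every pair was not computed. The contrast of CKD627 minus CKD523 was -1.56 on the log2 scale for Mrps6 (edgeR adjusted p = 0.0745) and -0.83 for Mrpl9 (edgeR adjusted p = 0.233).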

How the results depend on the processing

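The median of the 78 members stayed below 0 under every alternative run, from -0.64 to -0.33 over both fits, and the number of members below 0 from 71 to 78. What moved was the number of calls, and the cause was not tested. Genes are counted here in either direction, with the lower ones in parentheses, and the members called in these fits were all lower. The unpaired fit called 85 genes (33) and 1 member. The replicate block, which the paired fit is, gave 1089 genes (544) and 10 members, and the prefix as covariate 1527 (758) and 24. CKD523 alone gave 2231 (1188) and 12, CKD627 alone 303 (148) and 2, and DESeq2 1000 (517) and 21. Upper-quartile factors, with 64 genes (31), and library size alone, with 62 (21), left 0 members lower in the unpaired fit, as did no filter on low counts, with 45 genes (14). Without 1 library, the unpaired fit called from 6 to 26 genes (0 to 5) and from 0 to 0 members. With the pairs as a block, DESeq2 called 2026 genes (1056) and 25 members, and limma-voom 1389 genes (716) and 17 members. Leaving out 1 pair gave from 203 to 1319 genes (102 to 663) and from 0 to 9 members, with 40 to 52 members at an unadjusted p under 0.05. The share of all tested genes at that unadjusted threshold was not computed for these fits. DESeq2 called 1 member different between prefixes. Depth limits Mrpl23, at 0 to 30 counts per library.

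Among named members with small differences the sign turned in some settings. With length offsets the paired values were 0.0109 for Mrpl38, 0.0230 for Mrpl45 and 0.0157 for Mrpl9, and the unpaired ones 0.0296 for Mrpl45 and 0.0231 for Mrpl9. In CKD523 alone they were 0.57 for Mrpl23, 0.0398 for Mrpl45, 0.31 for Mrpl9 and 0.18 for Mrps6, and in CKD627 alone 0.0410 for Mrps2 and 0.12 for Mrps5. Without 1 pair, values ran from -1.02 to 0.67 for Mrpl23 and from -0.26 to 0.13 for Mrpl9, the highest without CKD627_1. Without 1 library, unpaired values ran from -0.44 to 0.27 for Mrpl23 and from -0.20 to 0.0396 for Mrpl9.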

Other observations

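Base composition did not go with the result as length did. Over 5 groups of tested genes ordered by GC content, the members' median paired log2 difference lay between -0.53 and -0.46, and that of the other genes between -0.02 and 0.03. The 33 members that share exon bases with another gene had a median of -0.48 with 3 that fell (Mrpl12, Mrpl51 and Mrps24), and the 45 others had -0.49 with 7 that fell. Among all tested genes 3.81% fell in the paired fit.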
